A study of Rattus norvegicus with 24 samples.

Results

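A set of 10 rat genes, of 4131 named in the authors' deposited table of age-related differentially methylated regions (DMRs), were examined in sperm: Lsamp, Spen, Vps13b, Epb41l3, B4galt6, Ccdc13, Fbn1, Wnk1, Cacna1g and Prrt4. Each has a region whose methylation was higher by at least 5 percentage points at postnatal day (PND) 120 than at PND65 in control animals and lower by at least 5 points in animals exposed to BDE-47, here called an opposite-change region. The genes carry 19 of the 5327 regions in that table, and 10 of the 19 are opposite-change regions, 1 per gene. The genes were selected on the authors' 4 group levels, so those levels and the differences between them are described below without a test.

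Epididymal sperm of 24 Wistar rats was studied in 4 groups of 6: BDE-47 PND120, BDE-47 PND65, Control PND120 and Control PND65. BDE-47, a brominated flame retardant, was fed to the dams daily at 0.2 mg/kg body weight between day 8 of pregnancy and PND21, and control dams received the corn oil vehicle alone. The pups were thus exposed through the dam before birth and until weaning. Each litter gave 1 male pup per age, and littermates can therefore stand in the PND120 and PND65 groups of an arm. Methylation was read by reduced representation bisulfite sequencing, which samples CpG-rich restriction fragments. The table gives 1 level per group and region, so the spread between the 6 animals, the depth of a region and its q-value are unknown here, and a level may reflect few fully methylated sperm or many partly methylated ones, which cannot be told apart. Sperm purity was not checked against marker genes here.

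Methylation at a CpG is copied to the new strand when DNA is replicated, and in mammals the male germ line carries a genome that is largely methylated except at CpG-dense gene starts. Those starts are usually kept free of methylation in sperm. Changes in sperm methylation with age, and after exposures early in life, are studied because the paternal methylome enters the next generation, although most of it is removed in the early embryo.

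The 10 genes were not compared with pathway lists and are placed here in loose groups by role. Lsamp and Epb41l3 act at the cell surface and the membrane skeleton, Fbn1 encodes the matrix protein fibrillin-1, Cacna1g and Wnk1 act on ion transport, Vps13b and B4galt6 act at the Golgi, Spen encodes a nuclear corepressor, and Ccdc13 encodes a centriolar satellite protein. Prrt4 encodes a proline-rich transmembrane protein. Gene-start sequences from RefSeq were matched for 6 of the 10: Ccdc13, Epb41l3, Fbn1, Lsamp, Spen and Wnk1. The sequences of Fbn1, Wnk1 and Ccdc13 are shown because their opposite-change regions lay in the gene body and were nearly unmethylated in PND65 controls. They are the 250 bases before a transcript start, 5′ to 3′ on the gene's strand (minus for all 3), on assembly GRCr8, at chr3:133203391-133203640 (Fbn1), chr4:154926148-154926397 (Wnk1) and chr8:130391659-130391908 (Ccdc13), with each CpG in capitals. The DMRs are given on rn6 and were not placed on these sequences.
Fbn1: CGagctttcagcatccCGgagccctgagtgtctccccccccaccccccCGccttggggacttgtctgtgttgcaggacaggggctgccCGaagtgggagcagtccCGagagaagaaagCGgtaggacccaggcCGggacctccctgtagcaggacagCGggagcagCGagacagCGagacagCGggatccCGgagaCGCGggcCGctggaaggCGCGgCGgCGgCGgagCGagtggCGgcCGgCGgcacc
Wnk1: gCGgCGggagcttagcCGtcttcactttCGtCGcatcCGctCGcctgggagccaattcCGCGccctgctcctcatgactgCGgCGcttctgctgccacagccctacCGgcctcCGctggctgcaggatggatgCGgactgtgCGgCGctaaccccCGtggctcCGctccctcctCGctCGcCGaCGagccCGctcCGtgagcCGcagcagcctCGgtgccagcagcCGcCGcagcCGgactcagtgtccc
Ccdc13: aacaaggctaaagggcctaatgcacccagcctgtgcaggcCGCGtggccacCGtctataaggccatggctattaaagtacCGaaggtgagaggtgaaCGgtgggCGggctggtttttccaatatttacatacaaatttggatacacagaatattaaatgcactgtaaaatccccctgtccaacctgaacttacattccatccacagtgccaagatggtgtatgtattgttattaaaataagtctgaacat
The Fbn1 sequence has 24 CpGs, the Wnk1 sequence 29 and the Ccdc13 sequence 6, against a median of 5 (quartiles 2 and 15) over 33469 RefSeq gene-start windows of the same length. Spen, with 44 CpGs, had more than 99.5% of those windows. The motif CCGG, which reads the same on both strands and overlaps a CpG, occurs 4 times in the Fbn1 window, 2 times in the Wnk1 window and 0 times in the Ccdc13 window, and 46.2% of all windows hold it. Ccdc13 has 4 annotated start windows, of which the one shown is the outermost, and the other 3, which overlap each other, have 4 CpGs and 1 CCGG each.

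The first question was how methylation at these genes differed between PND120 and PND65 in each exposure arm. The table was built on age differences, and why nearly all of them were rises in controls was not tested. Shares over all regions are thus shares among regions that mostly rose in controls. A control difference of at least 5 points upwards was listed for 99.1% of all regions, while a BDE-47 difference of at least 5 points downwards was listed for 0.976%. The combination occurred in 24 regions (0.451% of the table), of which 10 belong to the genes described here. At those 10 regions the control difference ran from 6.89 to 9.68 points, near or below the median of 9.30 points over all regions, and the BDE-47 difference ran from -10.8 to -5.17 points, against a median of -0.384 points over all regions. Differences here are PND120 minus PND65 unless stated.

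Among the cell-surface and matrix genes, Fbn1 showed the widest contrast between arms. Fibrillin-1 forms the microfibrils on which elastic fibres are built, and mutations of the human gene cause Marfan syndrome. Its opposite-change region of 3 CpGs lay in the gene body on chromosome 3 from 117765648 to 117765674. The authors' value was 17.6% at PND120 and 26.1% at PND65 in BDE-47 sperm, against 9.06% at PND120 and 0.470% at PND65 in control sperm. The age difference was -8.41 points in BDE-47 animals and 8.59 points in controls, of nearly equal size and opposite direction. Both BDE-47 levels were above both control levels.

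Lsamp encodes the limbic system-associated membrane protein, a lipid-anchored adhesion molecule of neurons. Its only listed region held 3 CpGs in the gene body on chromosome 11 from 58959467 to 58959536. BDE-47 sperm had 13.2% at PND120 and 19.0% at PND65, and control sperm had 18.5% at PND120 and 11.6% at PND65. The older group of each arm thus lay near the younger group of the other, with age differences of -5.85 points in BDE-47 animals and 6.89 points in controls.

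Epb41l3 encodes protein 4.1B, which ties membrane proteins to the spectrin-actin skeleton. A gene-body region of 3 CpGs on chromosome 9 from 117538671 to 117538813 had 17.1% at PND120 and 22.3% at PND65 in BDE-47 sperm, against 17.6% at PND120 and 9.88% at PND65 in control sperm. The arms nearly met at PND120, and differed by 12.4 points at PND65. Its BDE-47 difference of -5.17 points was the smallest among the 10 genes and lay just inside the limit of 5 points. Just outside it, with a control difference of at least 5 points, were regions at RGD1565498 (-4.87 points), Nrf1 (-4.86 points) and Bcl3 (-4.84 points).

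Of the ion transport genes, Wnk1 encodes a kinase that controls cation-chloride cotransporters through the kinases SPAK and OSR1. Its only listed region, 4 CpGs in the gene body on chromosome 4 from 152578416 to 152578901, had 13.9% at PND120 and 21.1% at PND65 in BDE-47 sperm. Control sperm had 8.68% at PND120 and 0.0889% at PND65, the lowest PND65 control level among the 19 regions. The age difference was -7.18 points in BDE-47 animals and 8.59 points in controls.

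Cacna1g encodes Cav3.1, the pore subunit of a low-voltage-activated T-type calcium channel. Its opposite-change region had 8 CpGs, the most of the 10, and lay in the gene body on chromosome 10 from 82129596 to 82130488. BDE-47 sperm had 15.4% at PND120 and 21.4% at PND65, against 27.1% at PND120 and 18.0% at PND65 in control sperm. The age difference was -6.01 points in BDE-47 animals and 9.19 points in controls. Here the main separation of the arms was at PND120, where BDE-47 minus control was -11.8 points, against 3.41 points at PND65.

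Vps13b, a lipid-transport protein of the Golgi whose loss causes Cohen syndrome in humans and defective acrosomes in mice, had the most negative BDE-47 difference of the 10. The region of 4 CpGs lay 20 bp upstream of the gene on chromosome 7 from 74118624 to 74118658. BDE-47 sperm had 19.0% at PND120 and 29.9% at PND65, while control sperm had 17.4% at PND120 and 9.88% at PND65. The age difference was -10.8 points in BDE-47 animals and 7.48 points in controls. The older groups of both arms lay close together, and the younger groups were 20.0 points apart.

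B4galt6, which encodes a lactosylceramide synthase of the Golgi, had its only listed region on chromosome 18 from 15490481 to 15506462, with 4 CpGs spread over 15981 bp of the gene body. The authors' value was 21.0% at PND120 and 27.3% at PND65 in BDE-47 sperm, against 27.3% at PND120 and 19.0% at PND65 in control sperm. As at Lsamp, the levels of the arms were exchanged between the ages, with differences of -6.24 points in BDE-47 animals and 8.35 points in controls.

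Spen encodes an RNA-binding corepressor that, in mouse, is needed for silencing by Xist. Its opposite-change region of 3 CpGs lay 25014 bp upstream of the gene, on chromosome 5 from 160095928 to 160095945, and therefore far from the gene start. BDE-47 sperm had 31.1% at PND120 and 37.0% at PND65, the highest BDE-47 levels of the 10 regions, against 11.6% at PND120 and 4.25% at PND65 in control sperm. The age difference was -5.81 points in BDE-47 animals and 7.36 points in controls, smaller than the distance between the arms at either age.

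Ccdc13, whose human protein takes part in building cilia, had 1 listed region of 4 CpGs in the gene body on chromosome 8 from 130475114 to 130475163. BDE-47 sperm had 11.9% at PND120 and 18.4% at PND65, against 9.52% at PND120 and 1.15% at PND65 in control sperm. Prrt4 had a gene-body region of 3 CpGs on chromosome 4 from 56453224 to 56453252, with 24.3% at PND120 and 31.2% at PND65 in BDE-47 sperm. Its control levels were 11.0% at PND120 and 1.36% at PND65. At both genes all BDE-47 levels lay above all control levels, and the age differences were -6.44 and -6.93 points in BDE-47 animals and 8.37 and 9.68 points in controls, in the order Ccdc13 and Prrt4.

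**Figure D1:**
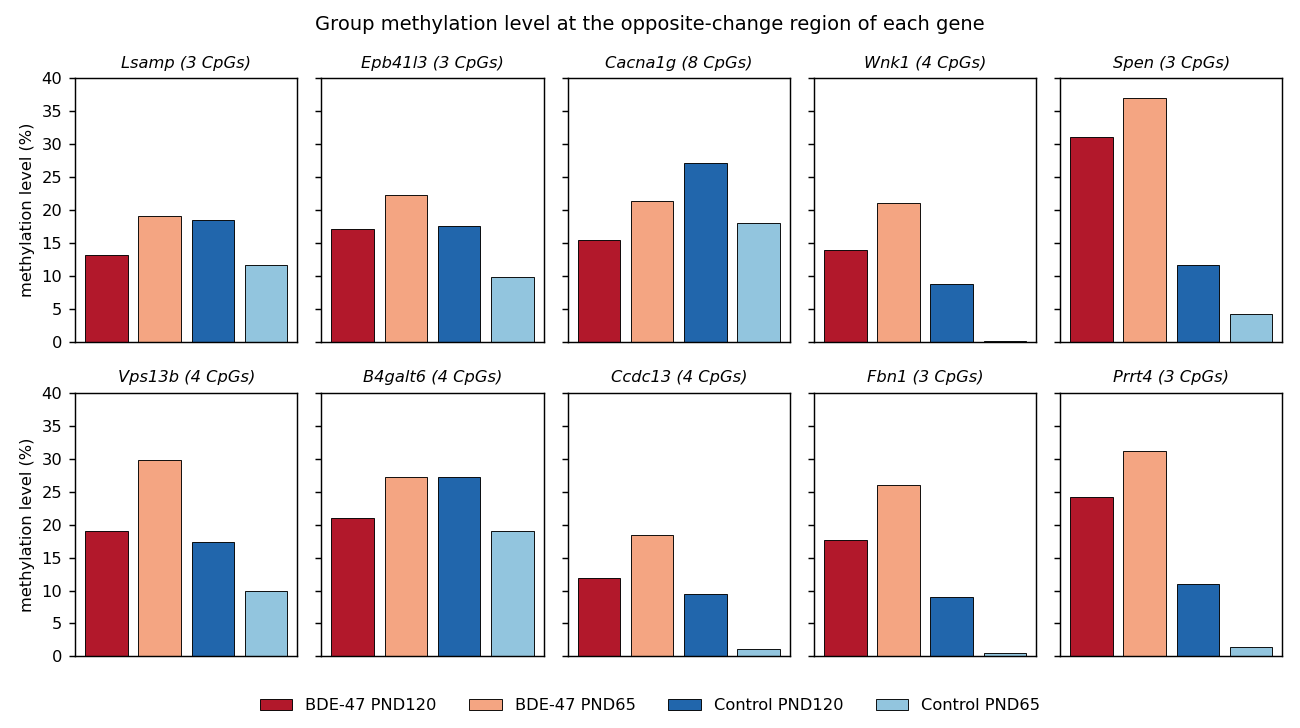
Methylation level in percent (vertical axis, from 0) of the 4 groups at the opposite-change region of each of the 10 genes; each bar is the authors' value for a group of 6 animals, with no error available. In every panel the BDE-47 PND120 bar is lower than the BDE-47 PND65 bar and the Control PND120 bar is higher than the Control PND65 bar, which is how the regions were chosen.

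**Figure D2:**
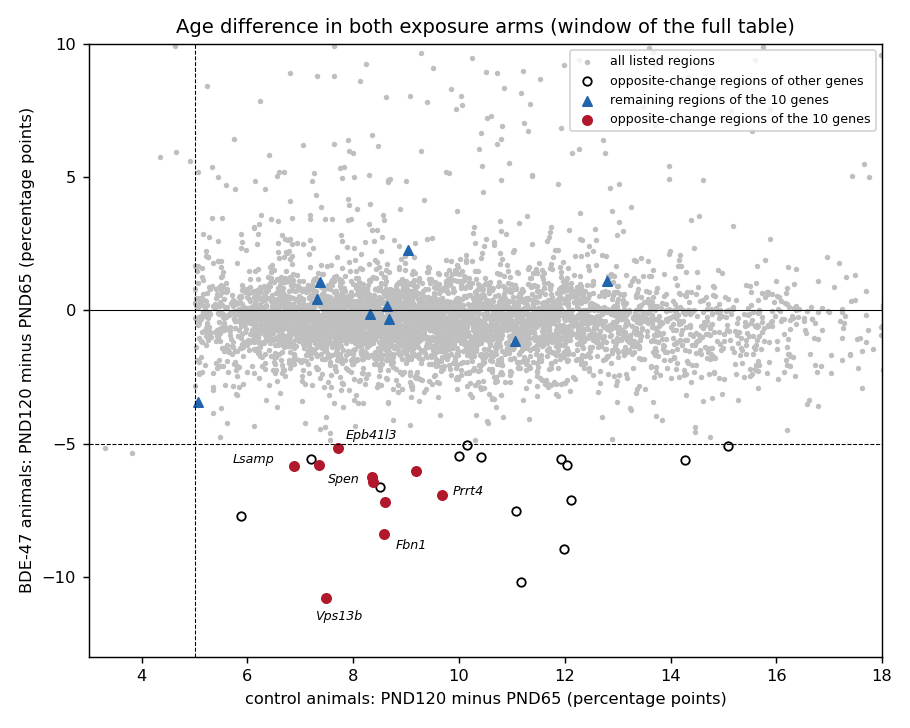
Age difference (PND120 minus PND65, percentage points) in BDE-47 animals, vertical, against that in control animals, horizontal, for 5175 of the 5327 listed regions (152 lie beyond the axes); dashed lines mark a rise of 5 points in controls and a fall of 5 points in BDE-47 animals. The 10 opposite-change regions (red) lie below the band around 0 that holds most regions, and the 9 remaining regions of the same genes (blue triangles) lie within -3.43 and 2.27 points in BDE-47 animals.

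The second question was whether other listed regions of the same genes carried the same pattern. Of the 10 genes, 6 had more than 1 listed region, with 9 regions besides the opposite-change ones. All 9 were higher by at least 5 points in controls, so a BDE-47 fall of 5 points would have made them opposite-change regions. Its absence from the 9 therefore follows from the split, and 0.976% of all regions had such a fall. Their BDE-47 difference ran from -3.43 to 2.27 points with a median of 0.174 points, close to the table's median of -0.384 points. The control difference of the 9 ran from 5.06 to 12.8 points with a median of 8.64 points. With one level per group, the difference between regions of a gene could not be tested.

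The contrast was present over short distances. Upstream of Vps13b, 3 regions lay within 252 bp, at 194, 122 and 20 bp before the gene. The farthest, on chromosome 7 from 74118406 to 74118484, had 10.7% at PND120 and 11.8% at PND65 in BDE-47 sperm, against 15.2% at PND120 and 4.16% at PND65 in control sperm. The middle region, from 74118501 to 74118556, had 4.95% at PND120 and 3.90% at PND65 in BDE-47 sperm, against 7.62% at PND120 and 0.253% at PND65 in control sperm. Only 68 bp separate it from the region nearest the gene, where BDE-47 sperm reached 29.9% at PND65. The age difference in BDE-47 animals was thus -1.16, 1.05 and -10.8 points from the farthest to the nearest region, while the control difference was 11.1, 7.37 and 7.48 points.

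Fbn1 and Epb41l3 had a second region nearby. At Fbn1 it began 159 bp after the opposite-change region, on chromosome 3 from 117765833 to 117765964, with 6 CpGs. There BDE-47 sperm had 6.54% at PND120 and 6.37% at PND65, against 8.95% at PND120 and 0.302% at PND65 in control sperm. The control levels were close to those of the first region, and the BDE-47 levels were lower than in it by 11.1 points at PND120 and 19.7 points at PND65. At Epb41l3 the second region ended 206 bp before the opposite-change one, from 117538370 to 117538465 on chromosome 9. It had 13.7% at PND120 and 12.6% at PND65 in BDE-47 sperm, against 17.7% at PND120 and 4.87% at PND65 in control sperm, and the BDE-47 difference was 1.10 points.

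**Figure D3:**
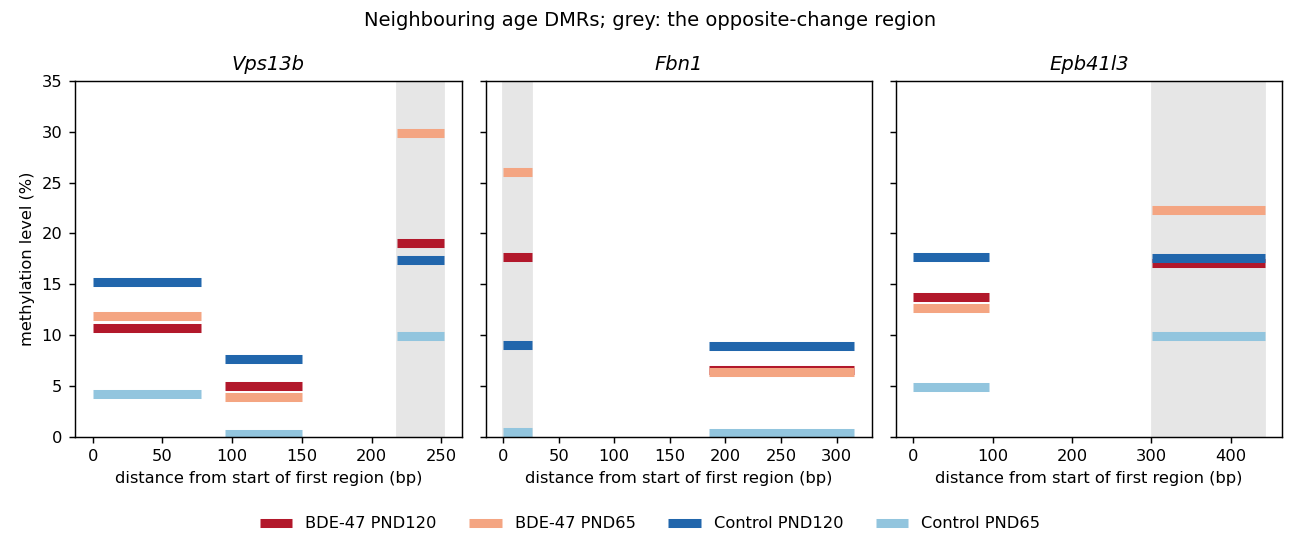
Methylation level in percent (vertical) of the 4 groups at neighbouring listed regions of Vps13b, Fbn1 and Epb41l3, by distance in bp from the start of the first region (horizontal); each bar spans a region and grey marks the opposite-change region. BDE-47 PND65 is the highest group in each grey region, at 29.9%, 26.1% and 22.3%, and lies below Control PND120 in every other region shown.

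At Prrt4, Spen and Cacna1g the other regions lay farther away or were longer. A 12-CpG region of Prrt4, on chromosome 4 from 56444521 to 56452375 and 849 bp from the opposite-change region, had 17.9% at PND120 and 15.6% at PND65 in BDE-47 sperm, against 20.9% at PND120 and 11.8% at PND65 in control sperm. At Spen the other region lay 14948 bp upstream of the gene, on chromosome 5 from 160085862 to 160085894. It had 4.17% at PND120 and 3.74% at PND65 in BDE-47 sperm, against 7.43% at PND120 and 0.112% at PND65 in control sperm. Neither region had a lower BDE-47 level at PND120 than at PND65.

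Cacna1g had 4 listed regions, 1 of them 181 bp upstream of the gene and 3 in its body. The upstream region, on chromosome 10 from 82198043 to 82198120, had 6.38% at PND120 and 6.69% at PND65 in BDE-47 sperm, against 9.08% at PND120 and 0.417% at PND65 in control sperm. The first body region, 279 bp away from 82197692 to 82197764, was alike, with 7.69% and 7.81% in BDE-47 sperm and 8.94% and 0.634% in control sperm at PND120 and PND65. The region from 82139428 to 82144186 was the most methylated of the 19, with 60.0% at PND120 and 63.4% at PND65 in BDE-47 sperm, against 62.1% at PND120 and 57.0% at PND65 in control sperm. Its differences, -3.43 points in BDE-47 animals and 5.06 points in controls, had the signs of the opposite-change region 8940 bp away.

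The third question was how the exposure arms differed at these genes within an age. These differences use the same 4 levels as the choice of regions and are a description. At PND120 the BDE-47 level was below the control level in 13 of the 19 regions (90.2% of all listed regions), and at PND65 it was above the control level in 19 of 19 (93.7% of all). It was above control at PND120 in the other 6 (9.8% of all). With a difference of at least 5 points, the counts were 3 of 19 below control at PND120 (34% of all) and 15 of 19 above it at PND65 (59.9% of all). The 9 remaining regions of the genes gave BDE-47 minus control of -4.54 to -1.26 points at PND120 and 3.63 to 7.75 points at PND65. In 8 of the 9, both BDE-47 levels lay between the control levels of the 2 ages. The exception was the most methylated Cacna1g region, where BDE-47 sperm at PND65 had 63.4%, above both control levels. The opposite-change region of B4galt6 also had both BDE-47 levels between the control levels. They were 21.04% at PND120 and 27.28% at PND65, against control levels of 27.34% and 18.99%. The share of all listed regions with BDE-47 levels between the control levels was not counted. The medians over all regions, which do not give that share, lay in that way too. They were 7.93% at PND120 and 8.54% at PND65 in BDE-47 sperm, and 12.7% and 0.936% in control sperm. The 10 opposite-change regions were spread more widely, with BDE-47 minus control from -11.8 to 19.5 points at PND120 and from 3.41 to 32.7 points at PND65.

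At 6 of the 10 opposite-change regions BDE-47 sperm was above control sperm at both ages, which held for 9.5% of all listed regions. It also held for 5 of the 14 opposite-change regions of other genes and for 11 of all 24, so it was not particular to these genes. BDE-47 minus control was 19.5 points at PND120 and 32.7 points at PND65 for Spen, 13.3 and 29.9 points for Prrt4, and 8.59 and 25.6 points for Fbn1 at these ages. It was 5.19 points at PND120 and 21.0 points at PND65 for Wnk1, 2.43 and 17.2 points for Ccdc13, and 1.69 and 20.0 points for Vps13b. These 6 regions had PND65 control levels of 0.0889 to 9.88%. The PND65 difference between arms at Spen exceeded that of 99.7% of all listed regions, at Prrt4 that of 99.5%, at Fbn1 that of 99.2% and at Ccdc13, the least of these 6, that of 97.6%. These ranks use the levels by which the regions were chosen. At the 14 opposite-change regions of other genes the PND65 difference ran from -5.51 to 41.7 points, with a median of 12.1 points.

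At the other 4 regions BDE-47 sperm was below control sperm at PND120, with BDE-47 minus control of -0.509 points at Epb41l3, -5.36 points at Lsamp, -6.31 points at B4galt6 and -11.8 points at Cacna1g. At PND65 it was above control by 12.4 points at Epb41l3, 7.38 points at Lsamp, 8.29 points at B4galt6 and 3.41 points at Cacna1g. These PND65 differences exceeded those of 94.4% of all listed regions at Epb41l3, 72.1% at Lsamp, 80.3% at B4galt6 and only 17.6% at Cacna1g. Lsamp, B4galt6 and Cacna1g had the highest PND65 control levels of the 10, from 11.6 to 19.0%. The order of the 10 genes by their PND65 difference was nearly their order at PND120, with Ccdc13 and Vps13b exchanged and Lsamp and B4galt6 exchanged. The PND65 difference is the PND120 difference plus the control age difference minus the BDE-47 age difference. The regions were chosen on these age differences, so the likeness of the orders is partly built in. With no replicate values, neighbours in either order could not be told apart.

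**Figure D4:**
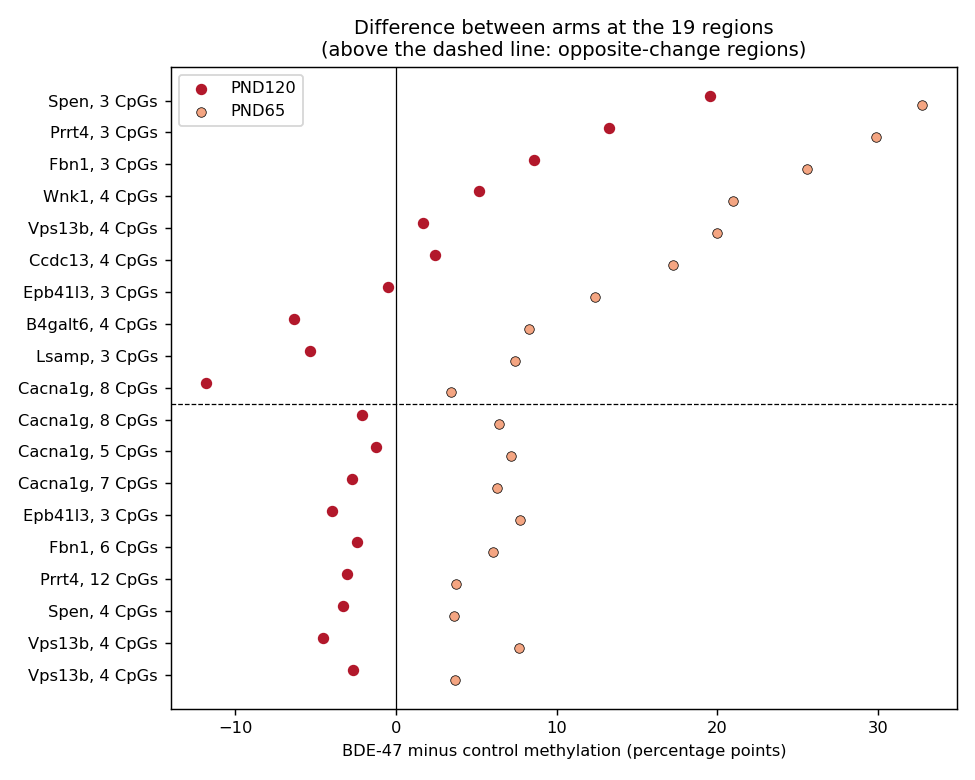
Difference in methylation between BDE-47 and control sperm (horizontal, percentage points) at PND120 (dark) and PND65 (light) for each of the 19 regions, labelled by gene and number of CpGs; points are differences of the authors' group values, with no error available. Above the dashed line the opposite-change regions run from Spen, 19.5 and 32.7 points, to Cacna1g, -11.8 and 3.41 points; below it the remaining regions are all negative at PND120 and all positive at PND65.

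The authors' deposited list of 30 exposure DMRs, which its header limits to q under 0.05 and a change of at least 5 points, names 0 of the 10 genes, and 0 of its regions overlap any of the 19. A list of 30 regions can hold few of the 5327 age regions, and how many of all 5327 it names or overlaps was not counted. The 0 counts are thus no result about these genes. The arm differences above, up to 32.7 points, are differences at regions listed for age and not for exposure.

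Features that the choice of genes did not use were compared with the whole table as counts. The 10 opposite-change regions had a median of 3.5 CpGs and a median length of 59 bp, against 4 CpGs and 155 bp over all regions. Short length was not shared by the opposite-change regions of other genes: the median was 711 bp over those 14 and 217.5 bp over all 24. Of the 10, 9 had at most 4 CpGs, against 57.5% of all regions, and 5 (50%) had exactly 3 CpGs, against 37.2% of all regions. Exactly 3 CpGs were found in 11 of the 14 opposite-change regions of other genes (78.6%) and in 16 of all 24 (66.7%). By CpG number, opposite change was found in 0.808% of 1979 regions with 3 CpGs, 0.462% of 1082 with 4 and 0.132% of 2266 with 5 or more. A BDE-47 fall of at least 5 points, whatever the control difference, was found in 25, 7 and 20 regions of these classes. A BDE-47 rise of at least 5 points was found in 24, 10 and 103. A level over fewer CpGs rests on fewer measured positions, and the part of CpG number in the result was not tested. Of the 10, 8 lay in gene bodies (79.7% of all regions), so their position was near that of the table, and they lay on 9 chromosomes.

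Regions of other genes with the most similar 4 levels were sought by Euclidean distance over the 4 groups. The nearest were Idh2 to Lsamp (1.73 points), Rps15 to Ccdc13 (2.33 points) and to Wnk1 (3.62 points), LOC100910970 to Prrt4 (2.43 points), RGD1563941 to Cacna1g (2.99 points), and Stk17b to B4galt6 (3.05 points). RGD1565498 was nearest to Epb41l3 (3.34 points), Cmpk1 to Fbn1 (3.95 points), Prr18 to Spen (4.85 points) and Son to Vps13b (6.85 points). Of these, LOC100910970 has an opposite-change region itself. Vps13b was the farthest of the 10 from its nearest region, and at Son the BDE-47 difference was -2.42 points.

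Relatives of the members by gene family were counted to see whether they were listed with the same pattern. Of 43 relatives, 18 had a listed region, 25 regions in all. The control difference was at least 5 points upwards in 25 of 25, and the BDE-47 difference was at least 5 points downwards in 0 of 25, where 0.976% of all regions had it, a count near that background. The median BDE-47 difference over the 25 was -0.377 points and the median control difference 9.01 points, against -0.384 and 9.30 points over all regions. The latent TGF-beta binding proteins, relatives of fibrillin, had 7 regions at 4 genes with BDE-47 differences from -2.32 to 0.926 points. Of 9 other calcium channel pore subunits, 3 had 6 regions, at Cacna1a, Cacna1b and Cacna1h, with BDE-47 differences from -2.41 to 0.780 points. The WNK-linked kinases Wnk4, Oxsr1 and Stk39 had 1 region each, with BDE-47 differences from -0.816 to 0.261 points. At B4galt3, a galactosyltransferase related to B4galt6, a region was higher at PND120 in both arms, by 7.75 points in BDE-47 animals and 11.4 points in controls.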

How the data were processed

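Sperm DNA of 24 rats in 4 groups of 6 was assayed by reduced representation bisulfite sequencing. The series' design text names Bismark 0.16.1 with Bowtie2 2.2.9 for mapping to rn6, nudup 2.2 for duplicates, a minimum of 10 reads per CpG, MethPipe for DMRs and closest-features 2.4.25 for gene annotation. The deposited levels are fractions between 0 and 1, with 1 value per group and region. Per the file headers, a region needed a q below 0.05 and 3 or more CpGs, and the count of CpGs is given for each. Of the columns used, 0 hold single animals, so depth, replicate spread and p-values of regions are unknown, no test was run, and counts and medians are descriptions over regions, which are not replicates.

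Fractions were multiplied by 100, and differences computed from them equalled the authors' deposited differences within 1.42e-14 points. A distance of 0 was read as gene body. The signed distances of the Vps13b regions all give 1 gene end, as do those of Spen, and with the strand place these regions upstream. Coordinates are as deposited, on rn6, with the base of the starts (0 or 1) not stated. Gene names and start sequences came from RefSeq (GRCr8), where 10 of 10 genes and 43 of 43 relatives matched by symbol. Named genes were all 10 members, genes of other opposite-change regions, the 3 regions just outside the limit, the nearest region to each member, and family relatives. Members and lists were chosen with earlier results of these data known. Alternatives were limits of 3 and 10 points, at least 5 CpGs, at least 100 bp, a 1000 bp window around genes and 5 points between arms. Python 3.11.15, pandas 2.3.3, numpy 2.4.6 and matplotlib 3.10.9 were used.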

Additional observations from a re-analysis of the deposited data

How the results depend on the processing

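The count of opposite-change regions depended on the limits set. Of the 10 regions at the member genes, 0 were left with 10 points in each arm, 1 (Cacna1g) with at least 5 CpGs, and 4 (B4galt6, Cacna1g, Epb41l3 and Wnk1) with at least 100 bp. Over the whole table, the 24 regions became 108 with 3 points in each arm, 1 (Cttnbp2nl) with 10 points, 3 (Cacna1g, Clybl and LOC103692617) with at least 5 CpGs and 15 with at least 100 bp. At the member genes 3 points gave 11 regions.

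Of the 19 member regions, 6 had at least 5 CpGs and 7 at least 100 bp. BDE-47 was above control at PND65 in 6 and 7 of these, against 19 of 19, and below control at PND120 in 6 and 6, against 13 of 19. With at least 5 points between arms, the counts were 15 at PND65 and 3 at PND120. Gene-body regions numbered 5 and 7 under those CpG and length limits, against 13, and 17 with 1000 bp added. The median CpG number of opposite-change regions was 8 with at least 5 CpGs, from 1 region, and 4 with at least 100 bp. The relatives with a region lower by the limit in BDE-47 animals numbered 0 under all alternatives run. The lower counts under the CpG and length limits come with fewer regions, by construction. Shares over all regions passing those limits (2266 and 3289) were not counted. Over the whole table, 93.7% of regions were above control at PND65, 90.2% below control at PND120 and 79.7% in gene bodies. Leaving out animals was not run, and no paired analysis was possible because the columns hold 1 value per group.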

Other observations

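Outside the 10 genes, 14 other genes had 1 opposite-change region each, chosen by the same limits and described as values of the authors' deposited table. Their control difference had a median of 11.1 points and their BDE-47 difference a median of -5.70 points. At Cttnbp2nl, the BDE-47 level was 20.3% at PND120 and 30.5% at PND65, and the control level 25.8% at PND120 and 14.6% at PND65, the only region of the table with at least 10 points in each direction. At Epha7, an ephrin receptor gene, BDE-47 sperm had 27.0% at PND120 and 34.1% at PND65, against 25.8% at PND120 and 13.6% at PND65 in control sperm. The genes Smarcd2, which encodes a subunit of BAF chromatin remodellers, and Gtf2b, which encodes the general transcription factor TFIIB, had BDE-47 differences of -5.61 and -5.09 points and control differences of 14.3 and 15.1 points.

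Other regions of this kind lay at Actrt2, an actin-related gene of the sperm head, 32536 bp away (-8.96 points in BDE-47 animals), at Cabp1, a neuronal calcium-binding protein gene (-5.80 points), at Armc10 (-5.59 points), Dzf17 (-5.58 points), and near Pramef8 (-5.46 points). Those at uncharacterised loci were LOC103692617 (-7.71 points), LOC298789 (-7.54 points), LOC102552268 (-5.51 points) and LOC100910970 (-5.05 points). Clybl, a mitochondrial lyase gene, was the exception at PND65: its BDE-47 level was 20.3%, below the control level of 25.8%. BDE-47 was above control at PND65 in 23 of the 24 opposite-change regions, near the share of 93.7% over all listed regions. At PND120 the Clybl level was 13.7% in BDE-47 sperm and 34.3% in control sperm.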
